A study of Mus musculus with 5 samples.

Results

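Mitochondrial ribosomal protein genes are the nuclear genes whose symbols begin with Mrps or Mrpl followed by a number. They were taken from the deposited table by that symbol pattern alone, with at most 1 further letter. The pattern found 78 of 51912 genes, 29 with a small-subunit symbol (Mrps) and 49 with a large-subunit symbol (Mrpl). All 78 are protein-coding genes in the GENCODE M21 annotation of GRCm38, and 5 rows with a pseudogene-type suffix after the symbol were left out. The authors' deposited table tested 77 of the 78, giving each an adjusted p-value. The remaining gene was Mrpl53, with a deposited mean of only 0.177 over the libraries. Another annotated gene, Gm42688, shared 88.0% of its exon length on the same strand. The part of this overlap in the low mean was not tested.

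RNA sequencing was made from C57BL/6 mice in 2 groups, sham (2 libraries) and stroke (3 libraries), anaesthetised with ketamine at 100 mg/kg and xylazine at 10 mg/kg. In the stroke group a filament closed the middle cerebral artery for 30 minutes, mice were kept when cerebral blood flow dropped by at least 80%, and motor deficits were scored at 24 hours. The series is about TRIM9, an E3 ubiquitin ligase of the brain, and stroke, and the comparison asks which genes differ between stroke and sham. The sources used here do not give the tissue, the time of sampling, the age or sex of the mice, or whether each library came from a separate animal. The p-values therefore measure the spread between these libraries, which may be technical in part.

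The mitochondrial ribosome makes the few proteins that mitochondrial DNA encodes, all of them membrane subunits of the respiratory chain and the ATP synthase. Its ribosomal RNAs are mitochondrial transcripts, whereas every one of its proteins is encoded in the nucleus, translated in the cytosol and imported. Many of these proteins have a counterpart in the bacterial ribosome, and others were added during the evolution of mitochondria. Neurons depend on oxidative phosphorylation for most of their ATP, and mitochondria are among the organelles damaged when blood flow stops and returns.

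Whole reads per library were recovered for all 77 tested members from the deposited mean, fold change and standard error, and are given as normalized reads, that is reads divided by the authors' size factors. The size factors were 0.945 and 0.734 in the sham libraries, called the deeper and the shallower, and 1.157, 1.131 and 1.116 in stroke libraries 1 to 3, numbered from the largest. The 12863 tested genes with recovered reads held 3317791 to 5324102 reads per library. The markers of neurons, astrocytes, oligodendrocytes, microglia and endothelium were all in the table, with no gene of these lists called. Estimates were above 0 for 6 of 6 neuron, 3 of 5 astrocyte, 0 of 5 oligodendrocyte, 4 of 5 microglia and 3 of 4 endothelium markers. Among the lists with recovered reads, the sham libraries stood furthest apart from each other in blood and choroid plexus markers. The 4 red blood cell markers, all called lower in stroke, summed to 2656 and 440.1 normalized reads in the deeper and the shallower sham, against 63.6 to 218 in stroke. Of the 4 choroid plexus markers, 2 were called lower (Ttr and Folr1). The 2 with recovered reads (Kl and Otx2) summed to 870.1 and 119.9 in the deeper and shallower sham libraries and to 132 to 180.3 in stroke. The 5 microglia markers summed to 3462 and 1790 in the deeper and the shallower sham, and to 3195 to 3852 in stroke. The 3 recovered endothelium markers summed to 1607 and 3028 in sham and to 1494 to 2606 in stroke. Mog, the recovered oligodendrocyte marker, had 1388 and 703.1 in sham and 752.8 to 899.4 in stroke. For Aldh1l1, of astrocytes, these were 1583 and 1214 in sham and 1392 to 1535 in stroke. Neuron markers had no recovered reads. No marker was at 0 in a recovered library. The part of these differences in the values below was not tested, so the values against each sham library alone are given beside the results. In bulk tissue, fewer cells of a type and less RNA per cell cannot be told apart.

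No mitochondrial ribosomal protein gene was called different between stroke and sham at an adjusted p below 0.05 in the authors' deposited table (Wald test with DESeq2, Benjamini-Hochberg adjustment over all 17420 tested genes). The count was 0 of 77 higher and 0 of 77 lower, beside 0.775% and 0.786% of all tested genes, or 1.56% in either direction. At an unadjusted p below 0.05, 2 members were higher (Mrps36 and Mrps26) and 0 lower, beside 4.84% and 5.66% of all tested genes. A limma fit on the recovered reads also called 0 members, with the same numbers at an unadjusted p (2 higher, 0 lower) and a smallest adjusted p of 0.523. Without the deeper sham library that fit called 13 members higher and 0 lower, but also 944 genes higher and 799 lower among all 12863, against 1 and 1 with every library. Without the shallower it called 0 members, and 178 genes higher and 127 lower.

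The estimates lay close to 0. In the authors' deposited table the log2 fold changes, stroke over sham, had a median of 0.081 over the 77 members, with quartiles of -0.076 and 0.24. Over all tested genes the median was -0.025, with quartiles of -0.31 and 0.20. The log2 fold change was above 0 in 48 members (62.3%) and below 0 in 29, beside 47.2% of all tested genes above 0. The range ran from -0.37 for Mrpl24 to 1.23 for Mrps36, and 67 members differed by less than 1.25-fold. Set against the deeper sham library alone, the median of the recovered log2 ratios was -0.058, and against the shallower alone it was 0.18. The median of all recovered genes moved from -0.068 to 0.028 in the same change of reference.

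**Figure D1:**
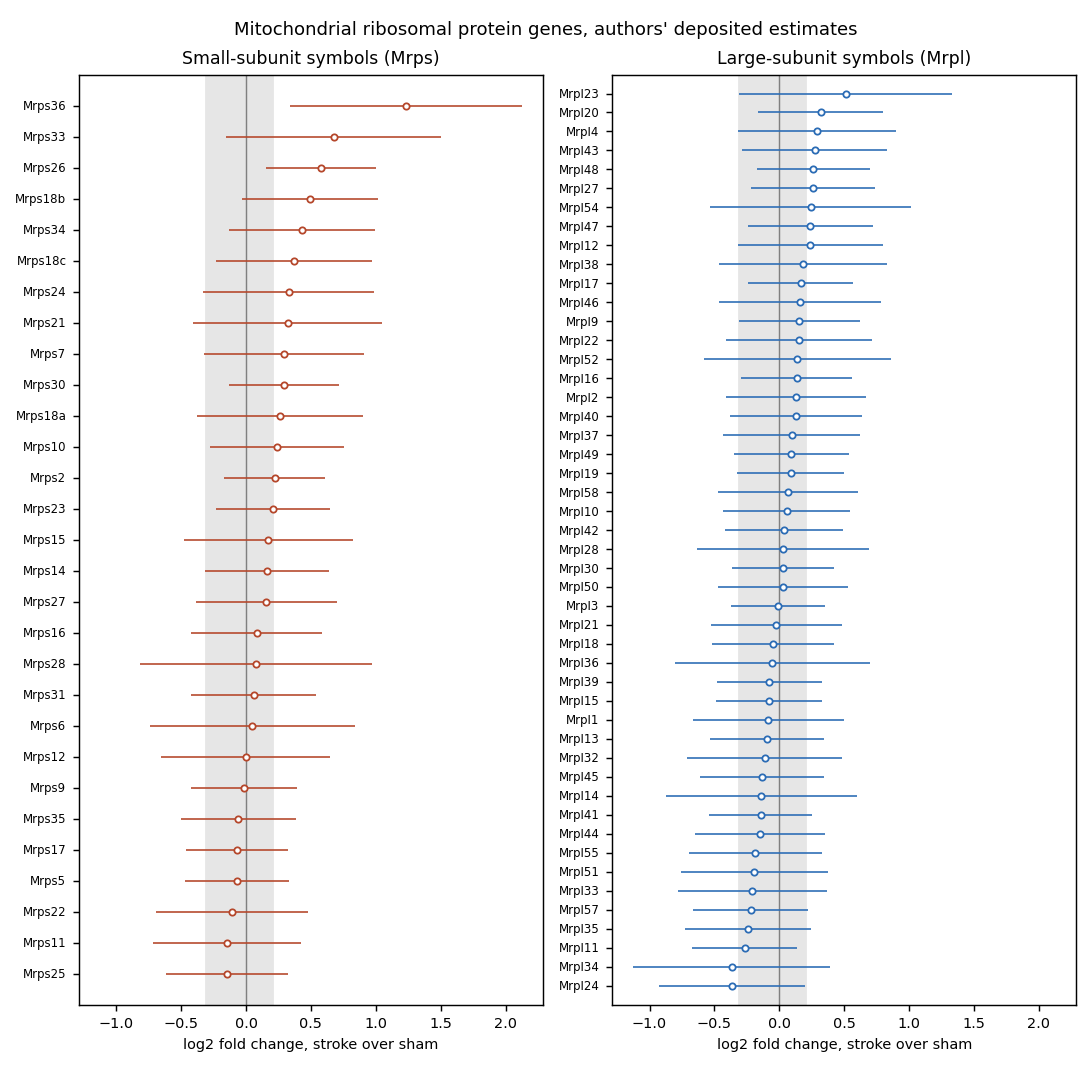
Log2 fold change (stroke over sham) of the 77 tested members from the authors' deposited table, small-subunit symbols at left and large-subunit symbols at right; points are estimates, lines are 95% normal intervals from the standard errors and the grey band spans the quartiles of all tested genes. Most points lie in or near the band, and only the intervals of Mrps36 and Mrps26 lie wholly above 0, neither gene passing the adjusted test.

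The intervals show how large a change the data could have left unseen. The standard errors of the members ran from 0.18 to 0.46 on the log2 scale, with a median of 0.26, below the 0.33 of all tested genes. The members also had higher means, with a median of 507 and a lowest of 65.2, beside 367 and 9.19 over all tested genes. The part of abundance in the standard errors and intervals was not tested. For 69 of the 77 members (89.6%) the 95% interval lay within a 2-fold change either way, beside 54.6% of all tested genes. The 8 exceptions were Mrps36, Mrps33, Mrps26, Mrps18b, Mrps21, Mrpl23, Mrpl34 and Mrpl54. For 20 members the interval lay within 1.5-fold. The smallest absolute Wald statistic among called genes was 3.37. A member with the median standard error needed an estimated change of 1.84-fold to be called (1.54-fold at the lowest error, 2.90-fold at the highest). The largest absolute Wald statistic among members was 2.70.

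Mrps36 had the largest estimate. Its product is now known as a subunit of the 2-oxoglutarate dehydrogenase complex of the citric acid cycle, and not as a stable protein of the mitochondrial ribosome, in spite of its symbol. The gene (ENSMUSG00000061474) lies on the minus strand at chr13:100735955-100744659 in GRCm38. The deeper sham library held 27.5 normalized reads and the shallower 45.0, from 26 and 33 whole reads. The stroke libraries held 95.9, 82.2 and 75.2, or 84.5 ± 10.5 (SD, n = 3). Every stroke library was above both sham libraries, at the lowest mean of any tested member (65.2). The authors' deposited table gives a log2 fold change of 1.23 (SE 0.46, 95% interval 0.34 to 2.13, DESeq2 adjusted p = 0.188). The 250 bases before its RefSeq start (GRCm38.p6, chr13:100744660-100744909, minus strand) are printed because this is the member with the largest estimate. They hold none of the 3 promoter motifs searched for further on, so no base is in capitals.
Mrps36: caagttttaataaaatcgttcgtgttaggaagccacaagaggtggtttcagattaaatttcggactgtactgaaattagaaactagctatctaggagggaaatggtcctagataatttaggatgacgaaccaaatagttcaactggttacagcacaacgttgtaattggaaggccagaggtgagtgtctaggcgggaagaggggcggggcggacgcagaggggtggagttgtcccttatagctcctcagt

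Mrps26, a small-subunit protein with no bacterial counterpart, came next by Wald statistic. The gene (ENSMUSG00000037740) lies on the plus strand at chr2:130563742-130568695. It had 790.7 and 664.9 normalized reads in the deeper and the shallower sham library. The stroke libraries had 1182, 1054 and 1026, or 1087 ± 83.5 (SD, n = 3). The stroke libraries were all above both sham libraries. The log2 fold change in the authors' deposited table was 0.58 (SE 0.22, 95% interval 0.16 to 1.00), or 1.49-fold, with a DESeq2 adjusted p of 0.194. In limma it was 0.58 with an adjusted p of 0.539, and without the deeper sham library it was 0.71 with an adjusted p of 0.0305. The 250 bases before the RefSeq start of Mrps26 (GRCm38.p6, chr2:130563507-130563756, plus strand) are printed with an ETS-family motif in capitals. It reads CCGGAAG on the opposite strand and ends a few bases before the start.
Mrps26: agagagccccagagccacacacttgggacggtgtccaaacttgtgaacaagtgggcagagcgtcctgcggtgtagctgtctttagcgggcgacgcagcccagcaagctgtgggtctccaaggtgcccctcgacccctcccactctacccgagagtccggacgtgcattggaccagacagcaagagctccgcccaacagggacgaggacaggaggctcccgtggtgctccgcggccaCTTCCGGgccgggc

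**Figure D2:**
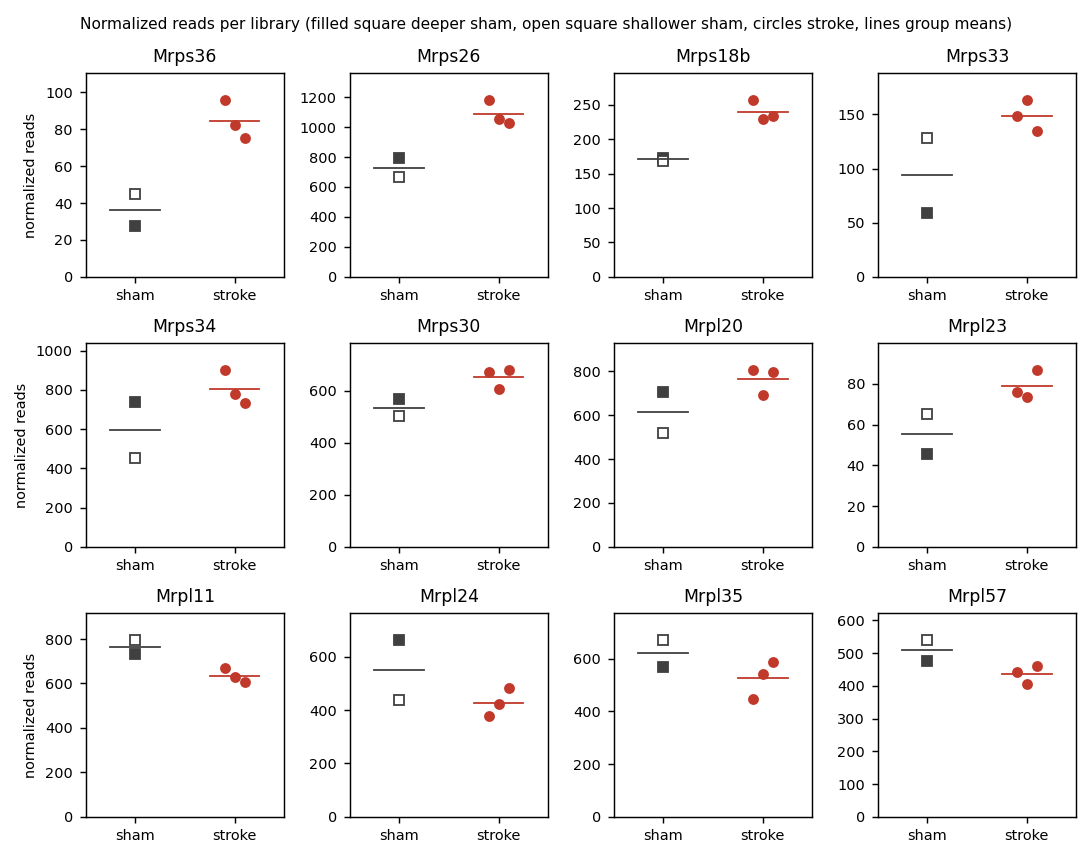
Normalized reads (vertical axis, from 0) in each library for the 8 members with the largest and the 4 with the smallest Wald statistic; the filled square is the deeper and the open square the shallower sham library, circles are the 3 stroke libraries and lines are group means. In the top row every stroke library lies above both sham libraries, whereas for Mrps34 and Mrpl20 the deeper sham library lies among the stroke values.

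Among the genes with a small-subunit symbol, 21 of 29 estimates were above 0, with a median log2 fold change of 0.17 in the authors' deposited table. The median was 0.38 against the shallower sham library alone and 0.028 against the deeper alone. Mrps33, a small-subunit protein with no bacterial counterpart, had 59.3 and 128 normalized reads in the deeper and the shallower sham library, and 149, 164 and 134 in stroke. Its sham libraries lay further apart than the shallower one and the stroke libraries. Its log2 fold change was 0.68 (SE 0.42) in the authors' deposited table, with a DESeq2 adjusted p of 0.646. Mrps34, a small-subunit protein needed for a stable small subunit, had 739.9 and 455.1 in the sham libraries and 903.2, 781.5 and 734.6 in stroke. The deeper sham library lay within the stroke range. Exons of other genes overlap those of Mrps34 on both strands, so the reads of this gene are uncertain. Nme3 overlaps 37.0% of its length on the same strand and Mapk8ip3 63.4% on the opposite strand.

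Mrps30 and Mrps18a carry a small-subunit symbol but belong to the large subunit in the known structures of the mammalian mitochondrial ribosome. Mrps30 had 568.4 and 502.8 normalized reads in the deeper and shallower sham libraries and 674.2, 609.1 and 681.7 in stroke, so the groups did not overlap. The authors' deposited table gives it a log2 fold change of 0.29 (SE 0.22, DESeq2 adjusted p = 0.766). Mrps18a had 802.3 and 419.7 in sham and 732.1, 820.4 and 645.0 in stroke, with the sham libraries further apart than any of the stroke libraries.

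Mrps18a, Mrps18b and Mrps18c are 3 paralogues descended from 1 bacterial ribosomal protein. For Mrps18b the sham libraries agreed closely, at 172.5 and 169.0 normalized reads, and the stroke libraries held 257.6, 229.0 and 233.8. This put every stroke library above both sham libraries, with a log2 fold change of 0.49 (SE 0.27, DESeq2 adjusted p = 0.525) in the authors' deposited table. Mrps18c had 145 and 216.6 in sham and 243.7, 227.2 and 228.4 in stroke. Its groups did not overlap either, although the shallower sham library lay only just below the stroke libraries. Exons of Gm43511 overlap 23.2% of the Mrps18c length on the same strand. Those of Gm16279 overlap 30.5% of the Mrps18b length on the opposite strand. The reads of both members are therefore uncertain. The 3 log2 fold changes were 0.49, 0.37 and 0.26 for Mrps18b, Mrps18c and Mrps18a in the authors' deposited table, all above 0 and none passing the test.

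Mrps12, the counterpart of the bacterial protein at the decoding centre, had 664.7 and 350.2 normalized reads in sham and 438.2, 541.0 and 542.0 in stroke. The stroke libraries all lay between the sham libraries, and the fold change in the authors' deposited table was 0.998. Mrps17, an RNA-binding small-subunit protein with the second highest mean of the members, had 1172 and 1264 in sham and 1061, 1187 and 1237 in stroke, so the groups overlapped. Mrps28, among the 4 members with the lowest mean, had 190.5 and 76.3 in sham and 169, 126 and 129 in stroke.

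Genes with a large-subunit symbol were spread more evenly about 0, with 27 of 48 estimates above 0 and a median log2 fold change of 0.033 in the authors' deposited table. Against the deeper sham library alone the median was -0.086 and against the shallower alone 0.14. The difference between the small-subunit and large-subunit medians was not tested. At the top, Mrpl20, which binds ribosomal RNA early in assembly in its bacterial form, had 704.9 and 520.5 normalized reads in sham and 807.3, 691.3 and 796.4 in stroke. Mrpl23, a protein beside the exit tunnel for the nascent chain, had 45.5 and 65.4 in sham and 76.1, 73.4 and 86.9 in stroke. The stroke libraries were all above both sham libraries for Mrpl23 but not for Mrpl20, and the DESeq2 adjusted p was 0.800 and 0.779 in the authors' deposited table.

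At the other end, Mrpl11 had the lowest Wald statistic. Its bacterial counterpart sits at the base of the stalk that recruits translation factors. It had 731.4 and 797.1 normalized reads in sham and 669.0, 630.3 and 605.6 in stroke, or 635.0 ± 31.95 (SD, n = 3), with every stroke library below both sham libraries. The log2 fold change in the authors' deposited table was -0.27 (SE 0.21, 95% interval -0.67 to 0.14, DESeq2 adjusted p = 0.781). Mrpl24, whose bacterial counterpart starts the assembly of the large subunit, had 663.7 and 437.4 in sham and 377.7, 423.4 and 482.0 in stroke. It had the lowest estimate, -0.37 (SE 0.29, DESeq2 adjusted p = 0.787 in the authors' deposited table), but stroke library 3 lay above the shallower sham library. Exons of Rrnad1 overlap 26.3% of the Mrpl24 length on the opposite strand, so the reads of Mrpl24 are uncertain.

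Of the other 6 members at the low end, Mrpl57 and Mrpl41 had groups that did not overlap. Mrpl57, a protein of the large subunit without a bacterial counterpart, had 476.3 and 540.9 normalized reads in sham and 443.4, 405.8 and 460.5 in stroke. Mrpl41, a large-subunit protein also studied for effects on cell growth and death, had 790.7 and 749.4 in sham and 701.0, 731.1 and 661.1 in stroke. For Mrpl35, Mrpl34, Mrpl33 and Mrpl55 at least 1 stroke library lay above the lower sham library. Mrpl34 shows the spread behind such an estimate, with 401.2 and 188.0 in the deeper and the shallower sham library and 191.0, 249.3 and 247.2 in stroke. The 6 log2 fold changes lay between -0.37 (Mrpl34) and -0.14 (Mrpl41) in the authors' deposited table, with DESeq2 adjusted p-values of 0.890 to 0.931.

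Some members have a further role. Mrpl12, of the stalk and reported to bind the mitochondrial RNA polymerase, had 791.7 and 474.2 normalized reads in sham and 716.5, 770.0 and 757.0 in stroke. Mrpl58, a peptidyl-tRNA hydrolase that frees stalled chains and is built into the large subunit, had 819.2 and 527.3 in sham and 736.4, 751.4 and 631.6 in stroke. For both genes all stroke libraries lay between the sham libraries, with log2 fold changes of 0.24 and 0.068 in the authors' deposited table. The most abundant member, Mrpl3, a protein near the catalytic centre, had close values in all libraries, with 1415 and 1395 in sham and 1395, 1450 and 1341 in stroke. This was a fold change of 0.993 in the authors' deposited table with a 95% interval of -0.37 to 0.35 on the log2 scale. Mrpl10, of the stalk, had 1144 and 809.3 in sham and 1124, 983.0 and 944.2 in stroke. Mrpl48 had 924.0 and 765.7 in sham and 997.4, 1117 and 925.4 in stroke, the lowest stroke value just above the deeper sham library.

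Counting such separations over the 77 members, every stroke library was above both sham libraries in 14 (18.2%, beside 12.4% of the 12863 recovered genes). Every stroke library was below both in 4 (5.19%, beside 13.4%). Of the 14, 8 had a small-subunit symbol and 6 a large-subunit symbol, and all of the 4 (Mrpl11, Mrpl39, Mrpl41 and Mrpl57) had a large-subunit symbol. In 26 members (33.8%) all stroke libraries lay between the sham libraries, beside 26.4% of all recovered genes. With the shallower sham library alone as the reference, 46 members (59.7%) had every stroke library above it, beside 39.1% of recovered genes. With the deeper alone, 24 (31.2%) did, beside 28.5%.

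The libraries differed more in the sham than in the stroke group. The 3 stroke libraries were within 1.25-fold of each other for 61 of 77 members and within 1.5-fold for 74, with a median coefficient of variation of 7.70%. The median ratio of the higher to the lower library was 1.16 over the 3 stroke libraries and 1.34 over the 2 sham libraries. In 29 members the sham libraries were over 1.5-fold apart, 25 of them higher in the deeper library and 4 in the shallower. The summed normalized reads of the 77 members were 41697 and 35205 in the deeper and the shallower sham library, and 40293, 41116 and 40383 in stroke. The stroke sums thus lay between the sham sums, within 1.25-fold of each. The shallower sham library held the lowest value for 39 members, and the deeper held the highest for 29. Over all recovered tested genes the sham libraries also spread further, in log2 normalized reads minus the gene's mean over the libraries. The quartiles were -0.22 and 0.32 in the deeper and -0.38 and 0.32 in the shallower sham library. In stroke libraries 1 to 3 they were -0.26 and 0.16, -0.16 and 0.14, and -0.14 and 0.18. The counts of this paragraph are given without shares over all recovered genes.

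**Figure D3:**
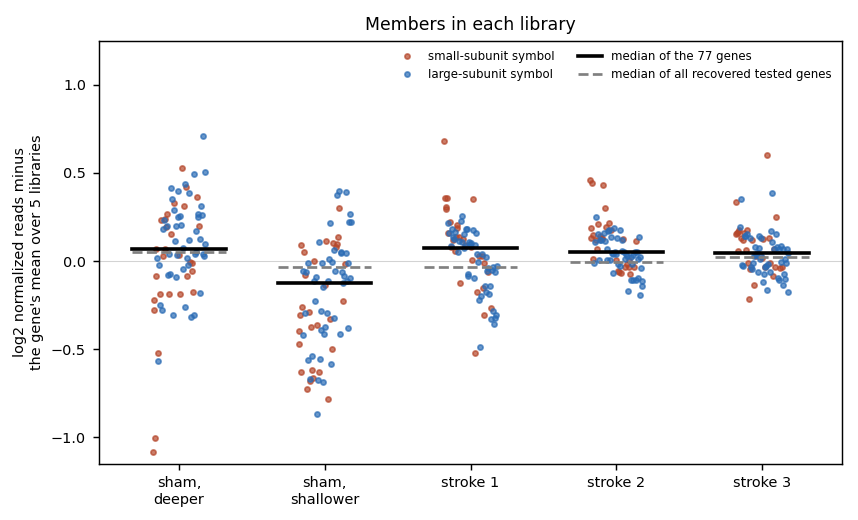
Each point is 1 of 77 members in 1 library, as log2 normalized reads minus that gene's mean over the 5 libraries (vertical axis); sideways position within a library carries no value, thick lines are the medians of members and dashed lines those of all recovered tested genes. The member medians are 0.069 and -0.12 in the deeper and the shallower sham library and 0.072, 0.048 and 0.043 in stroke, and the points spread further in the sham libraries.

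The difference between the sham libraries moved with the base composition of the genes. Across the 77 members, GC content of the longest transcript (38.6% to 60.4%) had a Spearman correlation of 0.742 with the log2 ratio of the deeper to the shallower sham library (Pearson 0.729). Across 10495 recovered protein-coding genes it was 0.614. These are correlations across genes that share the same libraries, and genes are not independent replicates. In the 26 members of lowest GC content, 10 were higher in the deeper library, with a median log2 ratio of -0.15. In the 26 members of highest GC content, 24 were higher in it, with a median of 0.87. An example of high GC content is Mrpl54, a large-subunit protein, with 432.9 and 177.1 normalized reads in the deeper and the shallower sham library and 331 to 387 in stroke.

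The stroke over sham values carried this difference in opposite directions. The correlation of GC content with the log2 ratio of stroke to the deeper sham library was -0.488 over the members, and with the ratio to the shallower it was 0.671. With the log2 fold change of the authors' deposited table, which averages over both, it was 0.221, and 0.220 over the recovered protein-coding genes. The 13 members called in limma without the deeper sham library, with adjusted p-values of 0.0207 to 0.0481, had GC contents of 49.2% to 60.4%. The part of GC content in the calls was not tested.

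**Figure D4:**
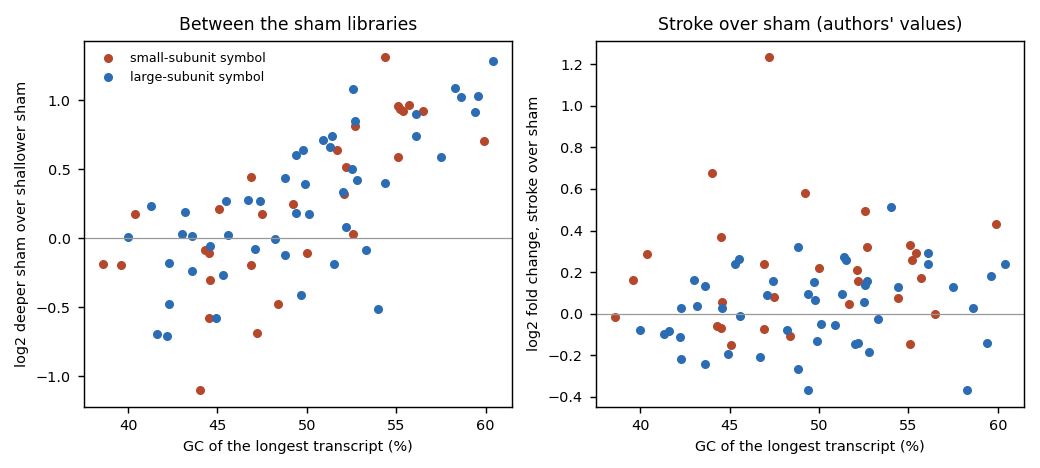
GC content of the longest transcript (horizontal axis, percent) of the 77 members against the log2 ratio of the deeper to the shallower sham library (left) and against the log2 fold change of the authors' deposited table (right); small-subunit symbols are red and large-subunit symbols blue. The left panel rises with GC content (Spearman 0.742), while the right panel shows a weaker relation (0.221).

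The 5 mitochondrial ribosome proteins with other symbols (Dap3, Ptcd3, Chchd1, Aurkaip1 and Gadd45gip1) had 0 calls and a median log2 fold change of 0.17 in the authors' deposited table. Dap3, a GTP-binding small-subunit protein, had 1341 and 1166 normalized reads in sham and 1513, 1423 and 1289 in stroke. Chchd1, of the small subunit, had 473.1 and 256.2 in sham and 403.6, 445.5 and 408.5 in stroke. The groups overlapped for both genes.

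Of 20 mitochondrial translation factors and related enzymes, 0 were called, with a median log2 fold change of -0.057 in the authors' deposited table. Tufm, the elongation factor that delivers tRNA to the mitochondrial ribosome, came closest, with 120.7 and 288.9 normalized reads in sham and 466.7, 558.7 and 470.3 in stroke. Every stroke library was above both sham libraries, which were themselves over 2-fold apart. Its log2 fold change was 1.29 (SE 0.39, DESeq2 adjusted p = 0.0549 in the authors' deposited table). Guf1, a GTPase of mitochondrial translation, had 979.1 and 1155 in sham and 685.4, 767.3 and 791.0 in stroke, all below sham. The authors' deposited table gives -0.51 (SE 0.21, DESeq2 adjusted p = 0.289) as its log2 fold change.

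The genes for assembling the mitochondrial ribosome (29 tested, 0 called) had a median log2 fold change of -0.0067 in the authors' deposited table. Ddx28, an RNA helicase for the large subunit, stood at 0.38 and Nsun4, an rRNA methyltransferase, at -0.35 in the authors' deposited table. The regulators of mitochondrial transcription and biogenesis (20 tested, 0 called) had a median of 0.060. Their largest statistics were those of Myc (0.86, DESeq2 adjusted p = 0.328), a growth regulator, and Mterf2 (-0.69, DESeq2 adjusted p = 0.399), a mitochondrial transcription factor, both from the authors' deposited table.

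Both mitochondrial ribosomal RNAs had low estimates. The large-subunit rRNA mt-Rnr2 fell, with a log2 fold change of -3.53 (SE 1.04, DESeq2 adjusted p = 0.0456) in the authors' deposited table. For mt-Rnr1, the small-subunit rRNA, the estimate was -3.05 (SE 1.06), with a DESeq2 adjusted p of 0.136 in the authors' deposited table, and did not pass. The libraries were prepared by a kit that captures polyadenylated RNA, and no values per library were recovered for either rRNA. Their part in the means was large, with deposited means of 799485 and 319451, whereas the members together held 0.150% of the summed means.

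The cytosolic ribosome gave other values. Of 77 tested cytosolic ribosomal protein genes, 12 rose (Rpl10a, Rpl18, Rpl27a, Rpl29, Rpl36, Rplp0, Rplp1, Rplp2, Rps10, Rps15, Rps2 and Rps21) and 0 fell in the authors' deposited table. Their median log2 fold change was 1.02, and 75 of 77 estimates were above 0. Their standard errors were larger than those of the members, with a median of 0.44 and a highest of 2.14, beside 0.26 and 0.46. The sham libraries differed in this list as well: of the 34 genes with recovered reads, 29 were lower in the deeper than in the shallower, with a median log2 ratio of -1.07. Over these 34 genes the median log2 ratio of stroke was 1.56 to the deeper alone and 0.55 to the shallower alone. The search for reads was limited by the mean and by agreement within a group, so these genes need not stand for all 77. Rpl36 had 66.7 and 258.9 normalized reads in sham and 1136, 1113 and 1155 in stroke. Rplp0, of the cytosolic stalk, had 1317 and 1184 normalized reads in sham and 2212, 2215 and 2464 in stroke. Rpl10a had 185 and 385.6 in sham and 860.9, 735.5 and 832.2 in stroke, each stroke library above both sham libraries. Cytosolic ribosomal protein genes have many processed pseudogenes that can share reads, so their counts are uncertain. Of 89 tested nuclear genes of the respiratory chain and ATP synthase, 1 rose (Ndufs5) and 0 fell, with a median of 0.11 in the authors' deposited table. Ndufs5, a subunit of complex I, had 127 and 74.9 in sham and 263.6, 232.5 and 207.8 in stroke. Atp5j2, a subunit of the ATP synthase, had 1163 and 1021 in sham and 1713, 1673 and 1463 in stroke. The authors' deposited table gives Atp5j2 a log2 fold change of 0.57 (SE 0.21, DESeq2 adjusted p = 0.175). Over the 58 respiratory chain genes with recovered reads, the median log2 ratio of stroke was -0.10 to the deeper and 0.31 to the shallower sham library. The difference between these lists and the members was not tested.

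**Figure D5:**
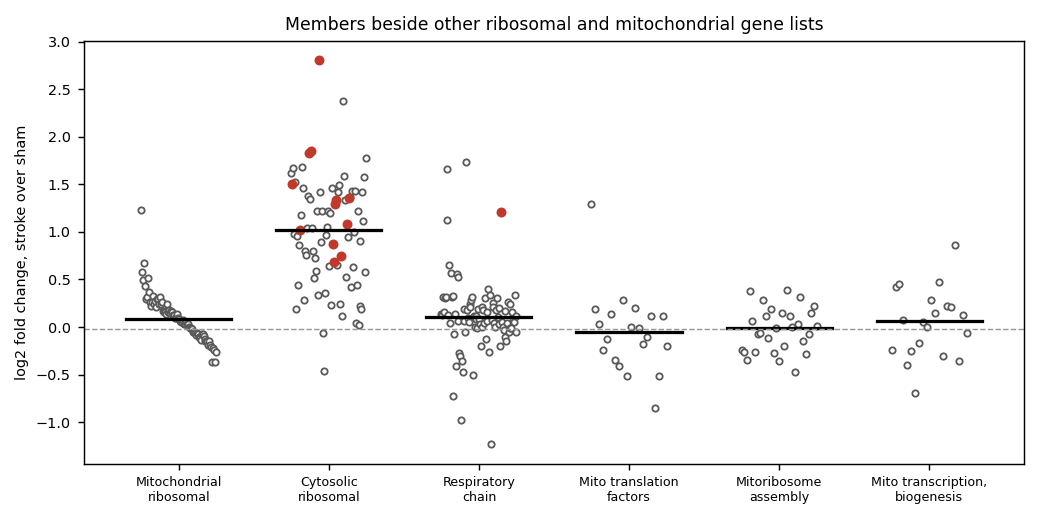
Log2 fold change (stroke over sham, authors' deposited table) of each tested gene in 6 lists; filled red points passed the adjusted p, bars are list medians, the dashed line is the median of all tested genes and sideways position carries no value. The members and the respiratory chain genes centre near 0 (0.081 and 0.11), and the cytosolic ribosomal protein genes centre at 1.02. Standard errors are not drawn and reach 2.14 among the cytosolic genes.

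Levels were compared between genes per length, as mean normalized reads per kilobase of merged exons. The median was 210.1 over the 77 members, with quartiles of 116 and 306. It was 239 for the 5 proteins with other symbols, 644 for the cytosolic ribosomal proteins and 821 for the respiratory chain genes. Within the members, Mrpl41 stood highest at 818 and Mrpl23 lowest at 14.2. Merged exons also count sequence of annotated transcripts that may not be used, and Mrpl23 has 4883 bases of merged exons.

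The members are scattered over 17 chromosomes, yet many share a start region with a neighbour. For 26 of 78 members (33.3%) the start lay within 1000 bases of the start of a protein-coding gene on the opposite strand, with overlaps of up to 500 bases allowed. The share was 12.9% of 14600 tested protein-coding genes. Mrps11 and Mrpl46 form such a pair of members on chromosome 7, with log2 fold changes of -0.15 and 0.16 in the authors' deposited table. Mrpl36 is paired with Ndufs6, of complex I, Mrps12 with the mitochondrial seryl-tRNA synthetase gene Sars2, and Mrpl49 with the cytosolic ribosomal protein gene Fau. Of the partners, 25 had an adjusted p and 0 were called, with a median log2 fold change of -0.11. For 45 members no exon overlapped another gene on either strand, and their median was 0.077. In 28 members exons overlapped a gene on the opposite strand, and the strand setting of the counting is not given in the sources used here.

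Promoters were searched for 3 motifs known from nuclear genes of mitochondrial function, on both strands, in windows of 250 bases before to 50 bases after the RefSeq start (GRCm38.p6). The windows matched 69 of 78 members and 12092 tested genes. The ETS-family motif CCGGAAG, of the kind bound by the nuclear respiratory factor GABP, was in 26 members (37.7%), beside 17.4% of tested genes. The core GCGCATGCG of the NRF1 motif was in 7 members (10.1%), beside 3.6%, and the core AAGATGGCG of the YY1 motif in 8 (11.6%), beside 3.1%. Members had 1.09 windows each and tested genes 1.28, with median GC contents of 58.7% and 60.3%. A match describes these letters only, and no match says nothing about the factor. The sequences below show 1 or 2 examples of each motif, in capitals as it reads on the gene's strand. In Mrpl32 and Mrpl39 the NRF1 core matches on both strands with an overlap, so 10 bases are in capitals. The YY1 core of Mrps18a begins 11 bases after the RefSeq start, in the transcribed part of the window. The printed stretch of Mrps18c is chr5:100798578-100798634 and that of Mrps18a chr17:46111003-46111032, both on the plus strand. The stretches of Mrpl32 and Mrpl39 are chr13:14613091-14613149 and chr16:84735336-84735394, both on the minus strand.
Mrps18c: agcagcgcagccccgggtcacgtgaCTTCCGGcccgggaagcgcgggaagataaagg
Mrps18a: caggtgcgttccAAGATGGCGgccctcagg
Mrpl32: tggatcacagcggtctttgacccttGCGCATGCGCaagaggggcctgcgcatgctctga
Mrpl39: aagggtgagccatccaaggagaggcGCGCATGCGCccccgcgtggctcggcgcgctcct

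The 7 carriers of the NRF1 core were Mrpl9, Mrpl10, Mrpl17, Mrpl22, Mrpl32, Mrpl39 and Mrps18b, none of them called. Mrpl32, a large-subunit protein matured by a mitochondrial protease before assembly, had 323.9 and 528.7 normalized reads in sham and 363.0, 372.2 and 446.1 in stroke, all between the sham libraries. Mrpl39, a large-subunit protein, had 585.3 and 588.6 in sham and 576.5, 562.2 and 531.2 in stroke. Its stroke libraries were all below sham, by a log2 fold change of -0.076 in the authors' deposited table. Mrpl9 had a log2 fold change of 0.16 there, with a DESeq2 adjusted p of 0.938.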

How the data were processed

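Per the labels' protocols, TRIzol and RNeasy columns gave the RNA, and a KAPA stranded mRNA-seq kit the libraries. STAR 2.5.2b, featureCounts 1.5.1, DESeq2 1.14.1, FastQC and the build GRCm38 come from the submitters' processing notes. Per the file headers, the deposited file is a DESeq2 results table with 1 row per gene and no values per library. The authors' mean of size-factor-normalized reads is a signal. The deposited fold change and its standard error are on the log2 scale, and the deposited Wald statistic is a score. The deposited p-value and adjusted p-value come from that test, and 17420 genes had an adjusted value.

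The members and gene lists were chosen with earlier results of these data known. Genes with 1 read in 1 library gave 5 distinct means, 3 with a positive and 2 with a negative fold change, so positive values were read as higher in stroke. These means gave the size factors. Whole reads were then solved from mean, fold change and standard error (Python 3.11.15, numpy 2.4.6, numba 0.67.0). A gene was accepted only where a single set of 5 counts matched. Means up to 1500 were tried, or up to 3000 for listed genes. Above a mean of 300 the search kept to values within 3-fold of the group mean, apart from listed genes with extreme fold changes. Genes beyond these limits are absent from shares and medians over recovered genes. Reads were recovered for 12865 of 13643 genes tried, among them 77 of 77 tested members, and 0 of 500 decoys with a shifted mean were accepted. The sources used here do not give the total reads of a library. Libraries could not be tied to the replicate numbers of the labels, and are named by size factor.

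The design chosen for the main counts was the authors' own Wald test, at an adjusted p below 0.05. As an alternative, limma 3.58.1 (R 4.3.3, trend and robust variance) was fitted to log2 of normalized reads plus 1 over 12863 genes. On simulated counts for this comparison and 12863 genes it called 23% of 2-fold and 76% of 4-fold changes. Only genes above a minimum mean were changed, and the simulated libraries lacked the GC-linked difference between the sham libraries. These rates therefore need not hold for the real libraries. The other alternatives were the filter, the gene set for adjustment, the null, the threshold, the pseudocount, the scaling and each library left out. Intervals are normal intervals at 95% from the deposited standard errors and cover the model's error only.

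Members named with values are the 8 with the largest and 8 with the smallest Wald statistic, the 4 with the highest and 4 with the lowest mean, the Mrps18 paralogues and 8 members with a special role. In the other lists, called genes and the 2 with the largest statistic are named. Mrpl54, Mrpl32, Mrpl39, Mrpl9, Mrps21 and the head-to-head pairs were chosen after their values were seen. Promoter sequences are from RefSeq, GRCm38.p6, and positions from GENCODE M21.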

Additional observations from a re-analysis of the deposited data

How the results depend on the processing

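The count of members called was 0 higher and 0 lower under 12 of 13 and 13 of 13 alternatives. Many of these could hardly have called a member, so the tally says little. The limma fits with every library called 1 gene higher and 1 lower among all 12863. Those without a stroke library called 0 higher and 0 or 1 lower. The test against a fold of 1.5 was stricter than the main test by design. Leaving out each library in turn in limma gave 0 to 13 members higher and 0 lower, the 13 without the deeper sham library, where 944 of all 12863 genes were called higher and 799 lower. In that setting 1 sham library is left, assumed to vary like the stroke libraries. The median log2 fold change over members (0.081) ranged from -0.058 without the shallower to 0.18 without the deeper sham library. The spread between library medians within groups (SD 0.079) came mostly from the 2 sham libraries and was about as large as the median itself. By this loose standard, the median moved by less than that spread under 11 of 13 alternatives. For the counts, adjusting the authors' Wald p-values over every gene with a read gave a smallest member adjusted p of 0.333 (Mrps36). A filter of 5 CPM (relative to the summed means) kept 11519 genes and gave 0.256 (Mrps26). That filter left out Mrps36, the member with the smallest unadjusted p, because of its low mean. For the median, restriction to members without exon overlap gave 0.077 and leaving out Mrps36 gave 0.079, both chosen after seeing the data. No paired analysis was possible because the labels name no pairing of sham with stroke libraries. The recovered libraries could also not be tied to the replicate numbers in the labels. With 2 sham libraries, the median member needed an estimated change of about 1.84-fold to be called. How often the authors' test would call a true change of a given size was not computed. Mrpl53 was not analysed beyond its lack of an adjusted p.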
